A study of Bos taurus with 18 samples.

Results

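The genes described here rose and fell together from cow to cow with 4 genes that fibroblasts of the connective tissue are known to express, EFEMP1, PCOLCE2, GFPT2 and SCARA5. Holstein dairy cows in lactation were fed a total mixed ration in which the main forage differed, namely alfalfa hay (AH), corn stover (CS) or rice straw (RS), and RNA of the rumen papillae was sequenced from 6 cows per diet, 18 in all. All 3 diets held the same concentrate mixture and the same share of corn silage, no cow was without a treatment diet, and the papillae were taken once, at slaughter, so that there is no value of a cow before the diet. The study compared the diets to relate the forage source to the shape of the papillae. The values are CPM, that is, reads of a gene per 1000000 reads on all annotated genes of that cow. They are not divided by gene length, so the CPM of different genes do not rank their levels.

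For each gene with a mean CPM over 5, log2(CPM + 0.5) was centred on the mean of its diet. The score of a cow was the mean of the 4 genes after each had been divided by its SD, and the members are the 100 genes with the highest Pearson r to this score. They were taken from 10402 genes, out of 24616 in the table, after the 73 genes that the study listed as different between diets had been left out. The 4 score genes are on that list, which was made from these same cows. The r values, the spread between the cows of a diet and the order of these cows therefore chose the members and are given as a description. The means of the diets were removed by the centring, were not used by the rule, and were tested. They are not independent of the choice of genes, since the 4 score genes came from a list of diet differences in these cows. Their log2 ratios of mean CPM ran from 1.26 to 1.60 in AH vs. CS and from 1.62 to 2.31 in RS vs. CS. Genes that follow them from cow to cow can share this pattern.

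A rumen papilla is a leaf-shaped fold of the rumen wall, covered by a stratified squamous epithelium and filled by a core of connective tissue, the lamina propria. Fibroblasts of this core secrete collagens, elastic fibres and proteoglycans, and blood and lymph vessels and immune cells run through it. A piece of papilla holds both compartments, and in bulk RNA more cells of a type and more RNA per cell cannot be told apart.

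The members are listed by identifier only. No member could be paired with a gene symbol, and of 188 symbols of collagens, proteoglycans, vessel, muscle, nerve, immune and epithelial genes drawn up for a check of the members, 0 could be paired with an identifier. The name stroma thus rests on the score genes and on the named genes of the study's list, and was not checked on the members themselves. They are called by their rank, from the highest r to the score at rank 1 to the lowest at rank 100, and no sequence or position is given for them.

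The score genes differed widely between cows of one diet. EFEMP1, which encodes the matrix glycoprotein fibulin-3, ranged from 3.90 to 192.5 CPM in the AH cows (median 17.4), from 3.73 to 38.4 in the CS cows (median 12.4) and from 11.8 to 219 in the RS cows (median 14.6). PCOLCE2 encodes an enhancer of the enzyme that trims procollagen, and had highest values of 79.6 (AH), 12.7 (CS) and 129 CPM (RS), with medians of 5.86, 4.14 and 8.97. GFPT2, an enzyme of the hexosamine pathway that feeds the building of glycans, reached 57.7, 11.7 and 68.9 CPM with medians of 2.88, 1.48 and 6.23. SCARA5, a ferritin receptor, reached 126, 29.5 and 142 CPM with medians of 4.56, 2.97 and 11.1. In each of these 4 genes the highest AH cow was the third one (AH3) and the highest RS cow was the third one (RS3), and the ranges of the 3 diets overlapped. Their pairwise r, centred within diet, lay between 0.92 and 0.96.

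On the log2 scale, the ratio of mean CPM of EFEMP1 was 1.50 between AH and CS (SE 0.97), 1.72 between RS and CS (SE 0.96), and -0.22 between AH and RS (SE 1.18). No score gene passed the exact permutation test or limma between diets. The two-sided exact permutation p ran from 0.0974 (GFPT2, RS vs. CS) to 0.801 (EFEMP1, AH vs. RS). The adjusted p from limma was 1.00 in every comparison. The study, by another method on these same cows, had listed each score gene as different between diets, with EFEMP1 lower in CS. Why the methods differ on these genes was not tested.

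The members reached an r of 0.97 at rank 1 and 0.80 at rank 100, with a median of 0.86, and 18 of them lay over 0.9. The limit cut through a continuous series. The last 3 members had r of 0.8027, 0.8018 and 0.8014, and the next 3 genes had 0.8014, 0.8014 and 0.8013. Of all 10472 genes with a mean CPM over 5, the study's list included, 124 had r over 0.8 and 0 had r under -0.8, and the median was 0.19.

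**Figure D1:**
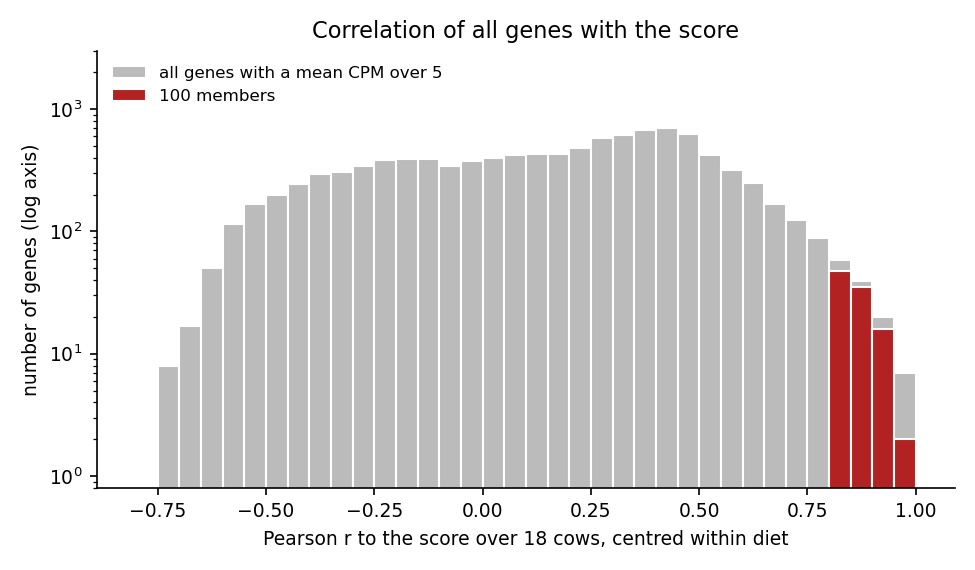
Histogram of Pearson r to the 4-gene score over 18 cows, centred within diet (x axis), with the number of genes on a log axis (y axis), for all genes with a mean CPM over 5 (grey) and the 100 members (red). The tail reaches 0.97 among the members on the right and stops at -0.75 on the left; grey parts over the red bars are genes of the study's list and those just under the limit.

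Members were tied to each other nearly as closely as to the score. Over the 4950 pairs of members the median r was 0.81, with a range of 0.39 to 0.99. Taken within one diet, where each r rests on 6 cows, the median r to the score was 0.92 over the AH cows, 0.81 over the CS cows and 0.90 over the RS cows. AH3 and RS3 had the highest scores. Without this pair of cows the median r was 0.78 over 16 cows, with a range of 0.61 to 0.95. Choosing the genes anew without AH3 and RS3 returned 50 of the 100 members.

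The score was related to several axes of variation between cows. Principal components were taken over the 10472 genes with a mean CPM over 5, centred within diet and not scaled by SD. The first held 43.8% of the variance within diets and had a correlation of 0.55 in size with the score. The second held 18.9%, with a correlation of 0.20, and the fourth, which held 6.46%, had the highest of the first 4, at 0.62.

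The summed level of the members showed which cows were high. In AH the sum ran from 2836 CPM in AH4 to 13247 in AH3, with a median of 5172. In CS it ran from 2780 CPM in CS2 to 6250 in CS5, with a median of 4326. In RS it ran from 3638 CPM in RS2 to 13180 in RS3, with a median of 4120. The next cow after AH3 in its diet was AH5 with 6096, and the next after RS3 was RS4 with 8817. AH3 and RS3 thus held more than any CS cow by over 2-fold, while the medians of the diets lay close together and the ranges overlapped. The means were 6076 ± 3723 CPM for AH, 4422 ± 1526 for CS and 6324 ± 3879 for RS (SD, n = 6 each). The 10 members with the highest mean CPM made up 63.2% of the sum.

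**Figure D2:**
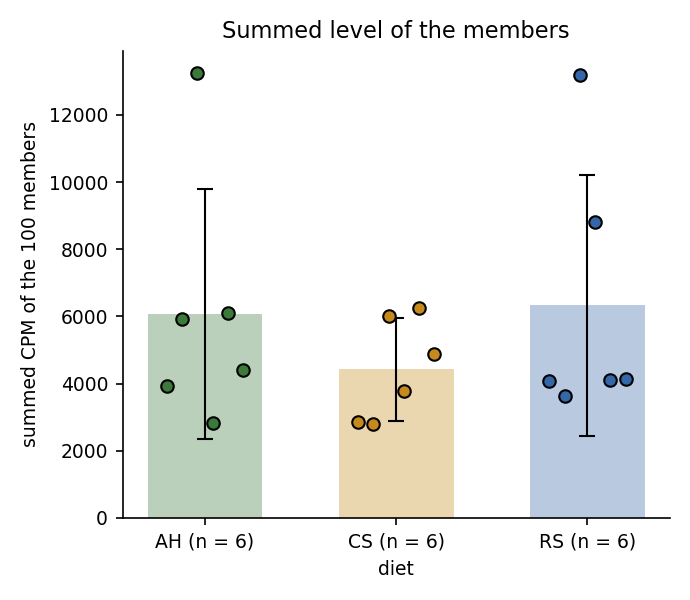
Summed CPM of the 100 members (y axis) by diet (x axis); points are cows, bars the mean of 6 cows and error bars the SD. AH3 at 13247 and RS3 at 13180 stand above all other cows, and 4 of the 6 RS cows lie between 3638 and 4123.

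Single members followed the same cows. AH3 was the highest AH cow in 99 members and RS3 the highest RS cow in 93, with RS4 highest in the other 7. AH4 was the lowest AH cow in 80 members and was above the mean of its diet in 0. In CS the top place was shared, with CS3 highest in 61 members, CS5 in 27 and CS6 in 12. AH3, RS3 and RS4 were above the mean of their diet in all 100 members. These orders follow from the choice of the genes.

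**Figure D3:**
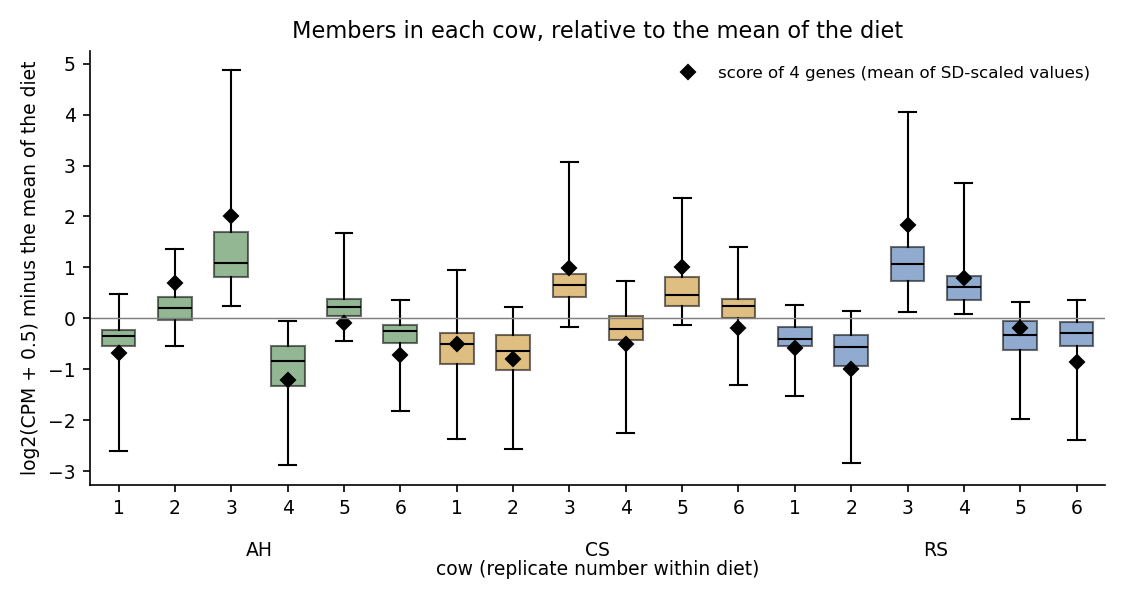
Level of the 100 members in each of 18 cows as log2(CPM + 0.5) minus the mean of the diet (y axis), with boxes from the lower to the upper quartile, the median as a line and whiskers to the lowest and highest member; diamonds are the score, in units of SD. Every member lies above 0 in AH3, RS3 and RS4, and every member lies below 0 in AH4.

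The size of the swings differed more between members than their r did. The SD within diets had a median of 0.66 on the log2 scale, from 0.15 to 2.23, against 0.42 over all genes with a mean CPM over 5, and 87 members were above that value. Among the 96 members with a read in every cow, the highest cow exceeded the lowest by a median of 5.72-fold, by over 4-fold in 73 and by over 10-fold in 26. The remaining 4 members had no read in at least 1 cow. Mean CPM had a median of 17.8, from 5.07 to 973, against 27.6 over all these genes. Of the members 11 were over 100 CPM, 63 between 10 and 100, and 26 under 10.

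The member of rank 1 was low in most cows and high in a few. It ranged from 0 to 51.2 CPM in AH (median 0.534), from 0 to 5.63 in CS (median 0.213) and from 0.0394 to 54.9 in RS (median 1.90). A count of 0 allows up to 3 reads, that is, 0.186 CPM where reads were fewest and 0.0930 CPM where they were most, for counting error only. The member of rank 3 had the same shape, with medians of 4.85, 0.489 and 4.87 CPM for AH, CS and RS against highest cows of 53.4, 14.2 and 58.3 CPM.

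Other members moved from a high base. The member of rank 17 had the highest mean CPM, at 973, and ran from 125 to 3319 CPM in AH (median 652), from 180 to 1383 in CS (median 707) and from 310 to 3478 in RS (median 524). The member of rank 5 ran from 117 to 1585 CPM in AH (median 425), from 165 to 607 in CS (median 270) and from 290 to 1617 in RS (median 356). In both, the medians of the diets were far closer than the highest cows. The member of rank 42, with a mean of 464 CPM, varied by only 2.01-fold over all cows, where AH averaged 509 ± 88.4, CS 411 ± 108 and RS 472 ± 96.4 (SD, n = 6 each). The member of rank 86 varied least, by 1.44-fold, between 74.3 and 107 CPM. A high r was thus reached by genes with a wide swing and by genes with a narrow one.

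Named genes were at hand in the study's list. That list was chosen on these cows, and its grouping by role was made after the values had been seen, so the counts describe these libraries only. Of its 66 genes with a mean CPM over 5 other than the score genes, 14 had an r over that of the last member, which is 21.2%. Over all genes with a mean CPM over 5 the share was 1.12%, which is set mostly by how many members the rule takes. The list genes and the score genes were both chosen for diet differences in these cows. They can share a pattern through that choice, so the gap between these shares is no test of a stromal origin. The 3 matrix genes with a mean CPM over 5, score genes aside, and the 3 genes grouped as secreted by stromal cells were among the 14. Other secreted proteins on the list, which the grouping put under neither role, were not. Of these, NOV had an r of 0.39 (0.55 without AH3 and RS3), IGFBP3 0.14 (0.55) and CYR61 0.03 (0.32). The matrix gene CILP had a mean of 4.06 CPM, under the filter, and has no r. FBN1, the main component of microfibrils, had an r of 0.90 and ran from 28.3 to 448 CPM over the 18 cows. DPT, a protein that binds collagen fibrils, had an r of 0.94 and ran from 3.95 to 266 CPM. MGP, an inhibitor of calcification in the matrix, had an r of 0.88 and ran from 23.4 to 883 CPM. CXCL12, a chemokine that stromal cells release, had an r of 0.95, SERPINF1, which encodes the secreted factor PEDF, had 0.93 and CRISPLD2, another secreted protein, had 0.92. PLXDC1, a membrane protein known from vessel endothelium, had 0.95. Leaving out AH3 and RS3, the r was 0.78 for FBN1, 0.89 for DPT and 0.84 for MGP. It was then 0.92 for CXCL12, 0.88 for SERPINF1, 0.83 for CRISPLD2 and 0.91 for PLXDC1.

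Genes that the grouping put under other roles were also past the limit. LYVE1, the hyaluronan receptor of lymphatic vessels, had an r of 0.85. Of the complement genes described here, C7 (0.86) and C3 (0.83) were past it, and C2 (0.59) and CFB (0.29) were not. Of 8 genes of macrophages or lymphocytes, Cd209f (0.88), the complement receptor CR2 (0.82) and CD5L (0.81), a protein secreted by macrophages, were past it, and the others ran from -0.04 (HLA-DQA1) to 0.62 (IGLL1). When AH3 and RS3 were left out, the r was 0.76 for Cd209f, 0.66 for CR2 and 0.61 for CD5L. It was then 0.76 for LYVE1, 0.81 for C7 and 0.71 for C3. Cd209f, CR2 and CD5L were read at low levels, with medians over all cows of 1.91, 2.85 and 2.10 CPM. Over all cows, genes past the limit thus included some grouped under other cells than fibroblasts, namely LYVE1, Cd209f, CR2 and CD5L. The complement genes were not assigned to a cell type. How much of each member came from which cell type was not tested.

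Epithelial genes did not follow the score. Of 8 genes of the squamous epithelium 0 were past the limit, with r from -0.38 (S100A8) to 0.36 (TGM3). S100A8, a calcium-binding protein grouped here with the squamous genes, was read at 2052 CPM or more in every cow. TGM3, which cross-links the cornified envelope, was read at 133 CPM or more, so reads of a squamous epithelial gene were present in all libraries. The 5 heat shock genes, HSPA1A, HSPH1, DNAJA1, BAG3 and HSPB8, ran from -0.43 to -0.30, and without AH3 and RS3 from -0.25 to -0.03.

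In the comparison of the diets, CS had the lowest mean CPM in 89 of the 100 members, against 31.6% of all genes tested. AH and RS each had the highest mean in 49, against 37.4% and 27.0% of all genes tested. All 100 members passed the filter of the test, which kept 13284 genes that exceeded 1 CPM in 3 or more cows of some diet, and 98 did so in every diet. Since the members rise and fall together by the rule, the 100 values are not 100 observations of a diet, and a pair of cows can move them all. The score genes had their lowest means in CS too, so these counts are not independent of the choice of the genes.

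In AH vs. CS, the mean CPM was higher in AH in 95 members, against 51.4% of all genes tested, with a median log2 ratio of 0.40 against 0.0064 over all genes. By limma 0 members were DE, which asks for an adjusted p under 0.05 and a ratio over 2-fold, against 0.00753% of all genes. The lowest adjusted p of a member was 1.00. Run on the recovered reads, edgeR and DESeq2 also gave 0. At an unadjusted p under 0.05, limma had 5 members against 1.87% of all genes. By the same measure edgeR had 7 against 2.64% and DESeq2 8 against 3.46%. The limma count became 3 without AH2 (2.3% of all genes), 2 without AH3 (2.42%) and 9 without AH4 (2.05%). It was 3 without CS2 (1.65%) and 9 without CS3 (2.71%). No member had AH and CS cows that did not overlap, against 0.12% of all genes.

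The difference rested largely on AH3. Without this cow the median log2 ratio was 0.065 and the mean was higher in AH in 62 members, against 51.9% of all genes. The median over cows was higher in AH in 75 members (56 to 88 when 1 cow was left out), against 43.0% of all genes, with a median log2 ratio of these medians of 0.19.

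In RS vs. CS, the mean CPM was higher in RS in 92 members, against 44.5% of all genes tested, with a median log2 ratio of 0.37 against -0.026. The 0 DE members of limma stand beside 0% of all genes, and edgeR and DESeq2 gave 0 as well. At an unadjusted p under 0.05, limma had 2 members against 1.29% of all genes, edgeR 10 against 1.84% and DESeq2 11 against 2.19%. The limma count became 0 without RS3 (0.771% of all genes) and 1 without RS4 (0.923%), CS1 (1.51%), CS2 (1.36%) or CS4 (1.12%). It was 4 without RS6 (1.24%), among others, and 5 without RS2 (1.67%), CS3 (1.58%) or CS5 (1.47%). No member had RS and CS cows that did not overlap, against 0.0602% of all genes. Without RS3 the median log2 ratio was 0.12, and the mean was higher in RS in 72 members, against 47.1% of all genes. The median log2 ratio was 0.27 without RS4, the second RS cow in the sum. The median over cows was higher in RS in 57 members (38 to 80 when 1 cow was left out), against 42.2% of all genes, with a median log2 ratio of these medians of 0.058.

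In AH vs. RS, the mean CPM was higher in AH in 50 members, against 55.3% of all genes, with a median log2 ratio of -0.00018. It was -0.36 without AH3, with 19 members higher in AH, and 0.30 without RS3, with 91 members higher in AH. Without both cows it was -0.074. Limma called 0 members DE, against 0.00753% of all genes, as did edgeR and DESeq2. At an unadjusted p under 0.05, limma had 3 members against 1.79% of all genes, edgeR 2 against 2.08% and DESeq2 3 against 2.5%. The limma count was 5 without AH3, against 2.5% of all genes. None of the members had AH and RS cows that did not overlap, against 0.143% of all genes. The median over cows was higher in AH in 63 members (40 to 83 when 1 cow was left out, 40 being without AH3), against 48.7% of all genes, with a median log2 ratio of these medians of 0.11, opposite in sign to that of the means. The sign of this median thus changed with the cow that was left out. The 3 comparisons share cows and are not independent of each other.

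The differences between diets were uneven over members with a wide and a narrow swing between cows, as a description with no test. On the scale of the mean log2(CPM + 0.5), the 25 members with the smallest slope on the score had a median difference of 0.33 (AH minus CS), 0.21 (RS minus CS) and 0.13 (AH minus RS). The 25 members with the largest slope had 0.27, 0.67 and -0.28. Without AH3 and RS3 these values were 0.21, 0.06 and 0.13 for the smallest slope and -0.20, 0.30 and -0.32 for the largest.

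Over all genes outside the study's list, grouped by r, the median differences from CS were highest in the group with the highest r. For AH minus CS the median was 0.013 in 75 genes with r under -0.6, -0.05 in 1320 genes with r between -0.4 and -0.2, 0.16 in 626 genes with r between 0.6 and 0.8, and 0.31 in 106 genes with r over 0.8. For RS minus CS the same groups had 0.05, -0.04, 0.15 and 0.35. AH minus RS followed no such course, with -0.03, -0.0034, 0.02 and -0.03. Without AH3 and RS3 the order along r was another. AH minus CS then had 0.20, 0.09, 0.03 and 0.09 in these groups, so that the genes with the lowest r had the highest median, and RS minus CS had 0.14, 0.04, 0.03 and 0.15, with both ends alike. AH minus RS had 0.06, 0.05, -0.01 and -0.07. The groups were formed by r over all 18 cows in both cases.

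**Figure D4:**
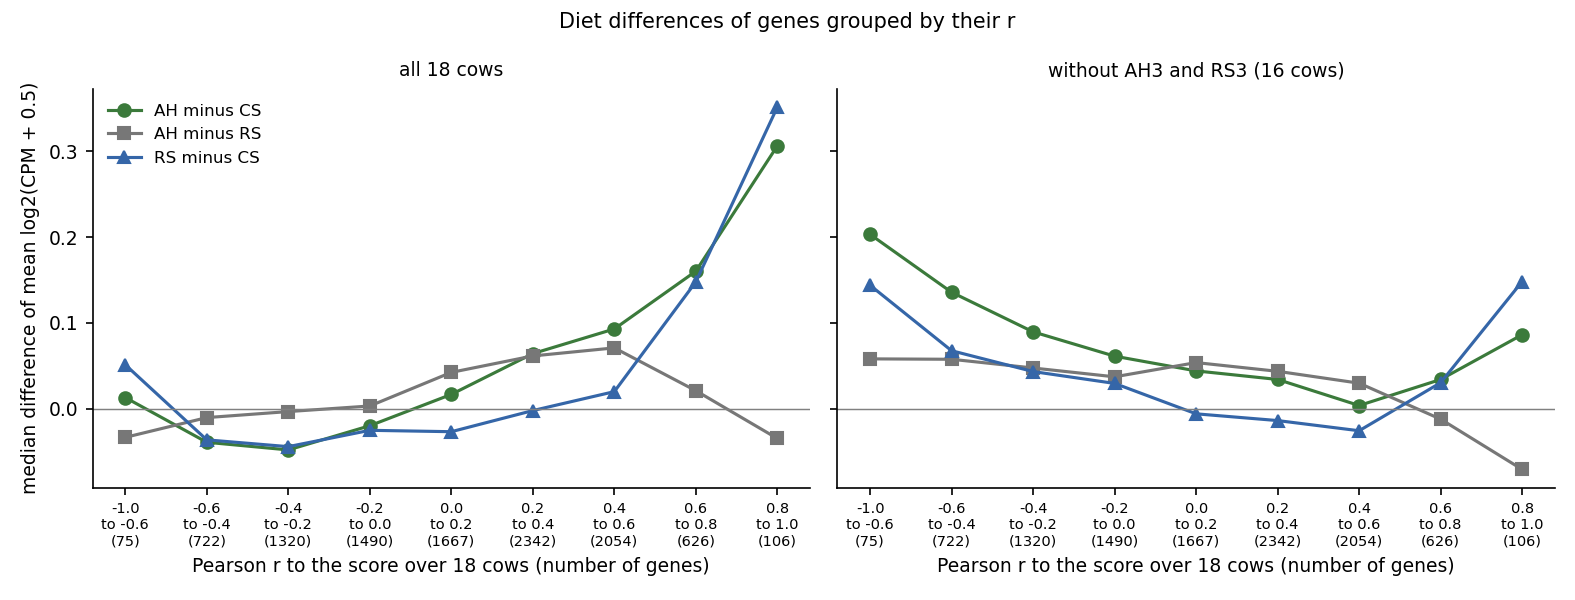
Median difference of the mean log2(CPM + 0.5) between diets (y axis) for genes grouped by their Pearson r to the score over 18 cows (x axis, with the number of genes in brackets), over all cows (left) and without AH3 and RS3 (right). On the left AH minus CS reaches 0.31 and RS minus CS 0.35 in the last group, and on the right they are 0.09 and 0.15, against 0.20 and 0.14 in the first group.

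Few members passed the exact permutation test of the 6 cows of one diet against the 6 of another, for which the smallest possible p is 0.0022. An exact p under 0.05, not adjusted, was met by 4 members in AH vs. CS, against 1.9% of all genes. It was met by 2 members in AH vs. RS, against 2.26%, and by 3 in RS vs. CS, against 1.81%. Each time the first-named diet was higher, and of all genes 1.38%, 1.32% and 1.21% had such a p with that direction. The count in AH vs. CS was 0 without AH3, CS1, CS2 or CS4, 1 without AH2 or AH5, 2 without CS6 and 8 without CS3. That in AH vs. RS was 1 without RS2, RS5 or RS6, among others, and 4 without RS3, and that in RS vs. CS was 5 without RS2 or CS3. These runs without a cow covered the members only, so no share over all genes stands beside them.

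For each comparison a pair of these members is given by identifier. ENSBTAG00000012931, at rank 73, ran from 27.0 to 55.3 CPM in AH (median 30.8), from 12.6 to 33.0 in CS (median 18.6) and from 13.5 to 29.6 in RS (median 19.0). Its AH cows lay high, with the lowest of them above the CS and RS medians, and the ranges overlapped. The mean was 35.2 ± 10.6 in AH, 21.5 ± 8.72 in CS and 19.7 ± 6.40 in RS (SD, n = 6 each). The log2 ratio was 0.71 in AH vs. CS (SE 0.30, exact permutation p = 0.0325) and reached 0.84 in AH vs. RS (SE 0.26, exact permutation p = 0.0065), with an adjusted p of 1.00 from limma in both.

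ENSBTAG00000004672, at rank 71, ran from 118 to 221 CPM in AH (median 140), from 78.6 to 147 in CS (median 112) and from 85.5 to 136 in RS (median 99.7). AH3 was the highest cow, and the 3 ranges overlapped. The log2 ratio was 0.51 in AH vs. RS (SE 0.19, exact permutation p = 0.0216). In AH vs. CS the other member given is ENSBTAG00000002292, at rank 37, with 8.39 to 25.8 CPM in AH (median 12.5) and 4.84 to 11.0 in CS (median 8.69). Its log2 ratio was 0.74 (SE 0.34, exact permutation p = 0.0476), and AH3 lay far above the other AH cows. The adjusted p from limma was 1.00 for both.

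ENSBTAG00000003749, at rank 39, ran from 6.40 to 18.6 CPM in RS (median 8.91) and from 3.23 to 9.31 in CS (median 4.98). RS3 lay far above the other RS cows, and the ranges overlapped. The log2 ratio in RS vs. CS was 0.86 (SE 0.34, exact permutation p = 0.0173). ENSBTAG00000017869, at rank 18, ran from 171 to 354 CPM in RS (median 202) and from 114 to 203 in CS (median 157), with a log2 ratio of 0.54 (SE 0.23, exact permutation p = 0.0433). It was also high in AH, from 161 to 393 CPM (median 235). Both had an adjusted p of 1.00 from limma.

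**Figure D5:**
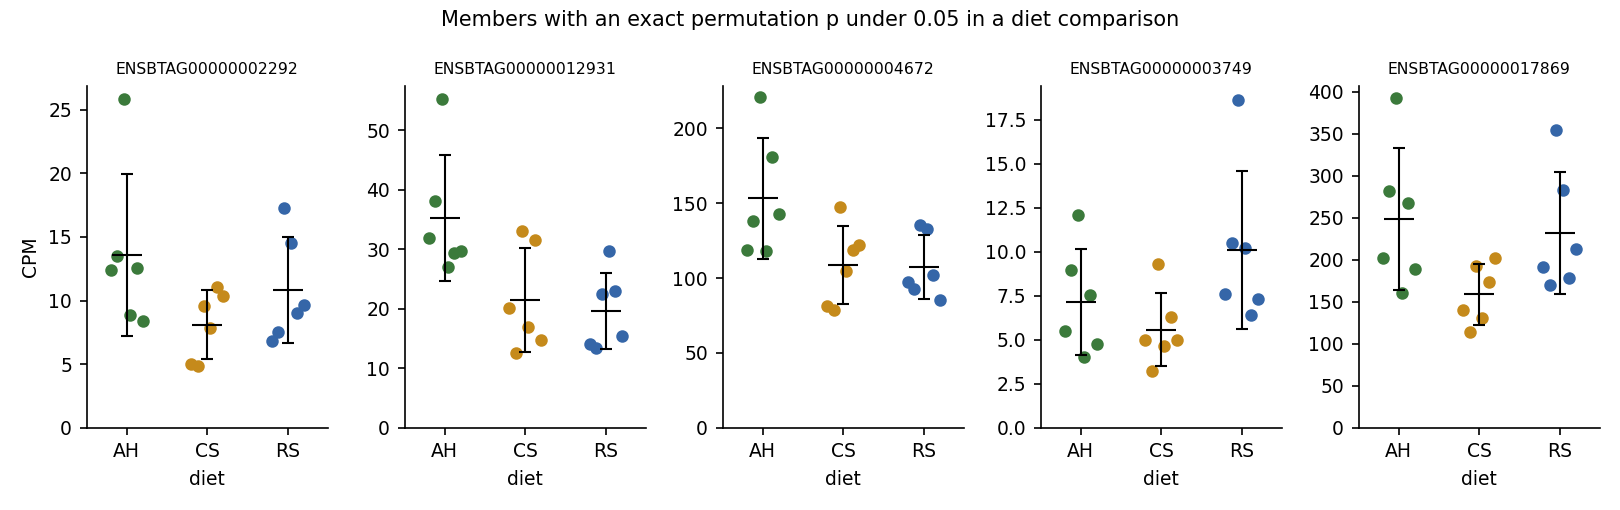
CPM (y axes, each from 0) of 5 members by diet (x axis); points are cows, the long line is the mean of 6 cows and the error bar the SD. In each panel the cows of the diets overlap, and AH3 at 25.8 CPM (ENSBTAG00000002292) and RS3 at 18.6 CPM (ENSBTAG00000003749) stand apart from the other cows of their diet.

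The depth of the libraries moved with the score through the same cows. Libraries held 16099131 to 32252177 reads on genes. RS3 had the most, AH3 was next with 29594787, and CS4, with 29184724, was the third and had a sum over the members of only 3778 CPM. Centred within diet, over 18 cows, reads on genes had a Pearson r of 0.49 to the score (permutation p = 0.0367, adjusted p = 0.0735 over 4 measures) and a Spearman rho of 0.31 (permutation p = 0.203, adjusted p = 0.270). Without AH3 and RS3 the r was 0.03, so the relation rested on these cows. Within diets it was 0.69 in AH, 0.11 in CS and 0.59 in RS, over 6 cows each.

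The number of genes over 1 CPM had an r of 0.51 to the score (permutation p = 0.0332, adjusted p = 0.0735; rho 0.44, permutation p = 0.0699, adjusted p = 0.140) and 0.68 without the 2 cows. The TMM factor, which rescales a library by the bulk of its genes, had an r of 0.44 (permutation p = 0.0707, adjusted p = 0.0942; rho 0.49, permutation p = 0.0420, adjusted p = 0.140) and 0.67 without them. The share of reads held by the 10 most abundant genes had an r of -0.19 (permutation p = 0.436, adjusted p = 0.436; rho -0.21, permutation p = 0.402, adjusted p = 0.402) and -0.63 without them. No measure passed the adjusted threshold, and their part in the score was not tested. With values rescaled by the TMM factor, the rule returned 83 of the 100 members.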

How the data were processed

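RNA of rumen papillae from 18 cows was sequenced on an Illumina system. With TopHat2 the authors aligned paired reads to the bovine build UMD3.1, dropped those with over 2 mismatches or several hits, used HTSeq for counts on Ensembl genes, and deposited CPM relative to all reads on annotated genes. The labels' extraction text speaks of rectal tissue and a total RNA kit, the paper of rumen papillae and an mRNA kit with rRNA depletion; which holds was not tested. No batch, lane or date is named. Replicates are separate cows.

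The CPM of a cow were multiples of what 1 read is worth, and at a tolerance of 0.02 reads 100% of values came out whole. The chi-square per degree of freedom between cows of one diet ran from 40.6 to 316 (45 pairs), far over the sampling noise that copies of one library would show, and each cow was kept as its own replicate because the labels list separate cows.

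The members, lists and tests were chosen with earlier results of these data known. The diet comparison used limma 3.58.1 on log2(CPM + 0.5) (R 4.3.3, 1 term per diet, intensity trend, all 18 cows), with Benjamini-Hochberg adjustment over 13284 genes. A gene was DE where its adjusted p was under 0.05 and its arithmetic mean CPM differed over 2-fold. Ratios are of mean CPM and differences are of mean log2(CPM + 0.5), which understates changes of low genes. For single genes the permutation test was exact and two-sided, and depth measures had permutation tests with 100000 resamples. Alternatives on the recovered reads were the quasi-likelihood test of edgeR 4.0.16 and DESeq2 1.42.0. Others changed the pseudocount, filter, scaling, cows, fold threshold and membership rule, added a replicate block or left out each cow. Leaving out AH3 and RS3 together was chosen after seeing the data. The scripts were tested on simulated data.

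Members printed by identifier were up to 2 per comparison, those with the largest ratio among members with an exact permutation p under 0.05. Ranks described beside them were picked after their values had been seen, to show wide and narrow swings. Names came only from the study's list of 73 genes, and the reference gene table paired 0 identifiers. Some items are not reported here.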

Additional observations from a re-analysis of the deposited data

Results flagged for a closer look

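In a group of 6 cows, a cow was singled out where its gap to the nearest of the others exceeded Dixon's critical share of the whole range. Of 36 groups checked (12 quantities in 3 diets), 11 had such a cow. Chance gives about 1 in 20 for a quantity not chosen on these cows, but here the quantities were chosen for rising and falling together, so the 11 are one pattern that the choice of genes fixed and are not read against chance. In AH it was always AH3, with a summed level of the members of 13247 CPM, and with EFEMP1 at 192.5, PCOLCE2 at 79.6, GFPT2 at 57.7, SCARA5 at 126 and ENSBTAG00000002292 at 25.8 CPM. In RS it was always RS3, with EFEMP1 at 219, PCOLCE2 at 129, GFPT2 at 68.9, SCARA5 at 142 and ENSBTAG00000003749 at 18.6 CPM. In CS no cow stood apart in these quantities. Over single members, AH3 lay that far from the other AH cows in 41 of 100, RS3 in 10 and CS3 in 2.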

How the results depend on the processing

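No member was DE in any comparison under any alternative run. Leaving out each cow in turn, the median log2 ratio of the members lay between 0.065 and 0.54 in AH vs. CS, between -0.36 and 0.30 in AH vs. RS, and between 0.12 and 0.53 in RS vs. CS. Over all genes, DE genes numbered 1 in AH vs. CS (5 by DESeq2, 0 with the 12 cows compared alone, 1 to 2 leaving out a cow), 1 in AH vs. RS (7 by DESeq2, 2 with a replicate block, 0 without AH3 and RS3, 1 to 5 leaving out a cow) and 0 in RS vs. CS (1 with no filter, 0 to 6 leaving out a cow, 6 being without RS6). In AH vs. CS, members with an unadjusted p under 0.05 numbered 8 by DESeq2 (3.46% of all genes) and 2 to 9 leaving out a cow. Without AH3 and RS3 there were 3 (2.31%). In AH vs. RS they numbered 5 without both cows (2.03%) and 2 to 5 leaving out a cow. In RS vs. CS they numbered 11 by DESeq2 (2.19%), 10 by edgeR (1.84%), 1 without both cows (0.842%) and 0 to 5 leaving out a cow. Those with an exact permutation p under 0.05 numbered 8 with TMM scaling and 0 without AH3 and RS3 in AH vs. CS. Leaving out a cow gave 0 to 8 there, 1 to 4 in AH vs. RS and 2 to 5 in RS vs. CS. These alternatives of the exact test were run on the members only, with no share over all genes.

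The replicate block gave 8 members with an unadjusted p under 0.05 between AH and CS (2.24% of all genes), 5 between AH and RS (1.92%), and 7 between RS and CS (1.58%). For its fermentation, papilla width and qRT-PCR data the paper names a randomized complete block design, without saying which cows formed a block. No source says that equal numbers pair the cows, so the block was not used as the main model. Of 18 pairs of equal number, 12 had a correlation over 0.1, with a range of -0.48 to 0.71. The highest was that of AH3 with RS3, and CS3 was the highest CS cow in 61 members. Whether cows of equal number shared a block was not tested. A cow correlated best with its own number in 9 of 36 checks.

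The rule returned 60 of the 100 members from genes with a mean CPM over 1, and 50 without AH3 and RS3. Leaving out a cow returned 77 to 95. The cause of these changes was not tested. Genes with few reads are measured least precisely, and the member with the fewest had 0 in some cows.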
